A study of Zea mays with 4 samples.

Results

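The genes described here are those of C4 carbon fixation in the ear internode of maize, with the regulator protein of pyruvate phosphate dikinase. They were found by name: a probe set was taken when its gene was me3, pdrp1 or rbcS, or bore the symbol or synonym me, ppdk, pdk or pep with an optional number, case ignored. That gave 15 probe sets of 10 genes, of 17621 probe sets without controls and 1108 genes that the platform annotation names. The 10 genes were me3 (LOC542233), me2 (LOC542331), pep1 (LOC542372), pep4 (LOC542393), pep7 (LOC542479), Ppdk1 (LOC542759), pdrp1 (LOC732785), rbcS (LOC542212), PDK1 (LOC541677) and PDK2 (LOC542603). Of these, 8 are enzymes that handle phosphoenolpyruvate, malate or carbon dioxide, or their regulator. PDK1 and PDK2 came in through the symbol pdk, and their synonyms pdlk1 and pdlk2 belong to kinases of mitochondrial pyruvate dehydrogenase, not to the dikinase. They are described apart from the others.

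Both groups were RNA of the ear internode, the part of the stalk from which the ear grows, taken from inbred line F271 grown in an irrigated field without treatment. F271 is the parent with the less favourable alleles in a population bred to map lignin content and wall degradability. The groups were tassel emergence and early silking, each with 2 Affymetrix maize arrays, made from 290 and 440 ng of RNA in the first group and from 340 and 400 ng in the second. The labels give no plant age, no number of plants per RNA, no colour of the internode, and nothing that says whether a leaf sheath was left on it, and the 2 arrays of a stage may be technical repeats, so that every p-value measures only the spread between these arrays.

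In C4 plants such as maize, carbon dioxide is first bound to phosphoenolpyruvate by PEP carboxylase in mesophyll cells. The product is reduced to malate by a chloroplast NADP-malate dehydrogenase. Malate moves to the bundle sheath, where NADP-malic enzyme releases the carbon dioxide beside Rubisco, and pyruvate returns to the mesophyll, where pyruvate phosphate dikinase makes phosphoenolpyruvate again. The dikinase is switched off in the dark and on in the light by its regulator protein, a bifunctional kinase and phosphatase. Non-photosynthetic isoforms of PEP carboxylase, malic enzyme and the dikinase work in roots, stems and seeds, where they feed the citric acid cycle, supply reducing power or take part in pH balance.

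Values are log2 probe set summaries. A log2 value of 4 was taken as the floor, below which a probe set was not counted as measured, and a probe set was tested when it was above the floor on 2 or more of the 4 arrays, of either stage. This left 10782 probe sets, whose values correlated across probe sets at r = 0.933 between the tassel emergence arrays, at 0.967 between the early silking arrays and at 0.883 to 0.914 between stages. Array medians ran from 6.35 to 6.51, and the number of arrays limits the precision. The 4 genes looked for as markers of secondary walls, which stems are rich in, namely bk2, cesa10, cesa11 and CesA12, were between 9.82 and 13.41 on all arrays. All 4 were lower on both silking arrays than on both tassel emergence arrays, with changes of -2.65, -2.27, -2.47 and -1.97 (limma, adjusted p from 0.0864 to 0.0898), and the log2 of their summed linear level was 14.66 and 15.07 on the tassel emergence arrays, against 12.77 and 12.41 on the silking ones. This difference in the marker genes stood beside every stage comparison of the C4 genes, and its part in them was not tested. Of 10 zein probe sets, seed storage proteins, 9 were below the floor on every array, and the remaining 1, of gz27, was at 5.99 to 6.97. Among the other kernel markers looked for, bt2 was at 5.92 to 6.77, higher at silking without overlap, and zpu1 at 3.61 to 4.58. GLB1, with the synonym Hb, was at 8.25 to 9.08, and glb1, glb2, glb3, ole1 and sh2 were below the floor. Among root markers, ys1 was above the floor at silking alone, and nas1 and nas2 were below it. The pollen and tassel list was matched by name and held genes above and below the floor. Those above it on every array were the cesa genes, zmCL2-2, cpi2, TPT, CDPK1 and cks, taken in by names that begin with zmc, and LIP, taken in by the synonym MS. MST1 was above it on every array in 1 probe set and below it in the other. The genes mgs1, prf1, MFS14, iaglu and MSH1 were below it on every array. The gap between the 3' and 5' ends of 5 control transcripts, in log2 units, which depends on RNA integrity and amplification, was 4.57 and 2.88 on tassel emergence arrays 1 and 2 and 1.84 and 2.37 on their silking counterparts, so it moved with stage beside every result given here. Its part in these results was not tested beyond a fit with the gap as a covariate, and in RNA from a whole internode fewer cells of a type and less RNA per cell cannot be told apart.

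All 10 genes had a tested probe set, and 14 of the 15 probe sets were tested. At early silking, pdrp1 and me3 stood furthest above tassel emergence, while Ppdk1, rbcS, pep1 and the non-photosynthetic me2 were higher by less than 0.7 on the log2 scale and the carboxylase genes pep4 and pep7 were lower. None of the 14 probe sets passed an adjusted p of 0.05 (limma with Benjamini-Hochberg adjustment over all 10782), where the background was 0% and the smallest adjusted p was 0.0864. At an unadjusted p under 0.05, 2 of the 14, those of pdrp1 and me3, were higher, against 12.7% of all tested probe sets, and 0 were lower, against 12.1%. Stages did not overlap in 8 of the 14 with silking higher, against 34.9% of all tested, and in 1 with silking lower, against 24.9%. me3 is in both upward counts and was tested only because it was high at silking; of the other 13 probe sets, 1 was higher at the unadjusted threshold and 7 were higher without overlap. Over genes, with the probe set of highest mean standing for each, 5 of 10 were higher without overlap, against 34.9% of all tested probe sets, and 1 was lower, against 24.9%. 8 of the 10 genes had a change above 0, against 57.4% of tested probe sets. Without me3, 4 of 9 genes were higher without overlap and 7 of 9 had a change above 0. The median change of the 10 genes was 0.52, and 0.38 without PDK1 and PDK2, beside 0.10 over all tested probe sets. With me3 at its bound against the floor, both medians were the same. The probe sets higher without overlap include 3 of the 1 gene Ppdk1.

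**Figure D1:**
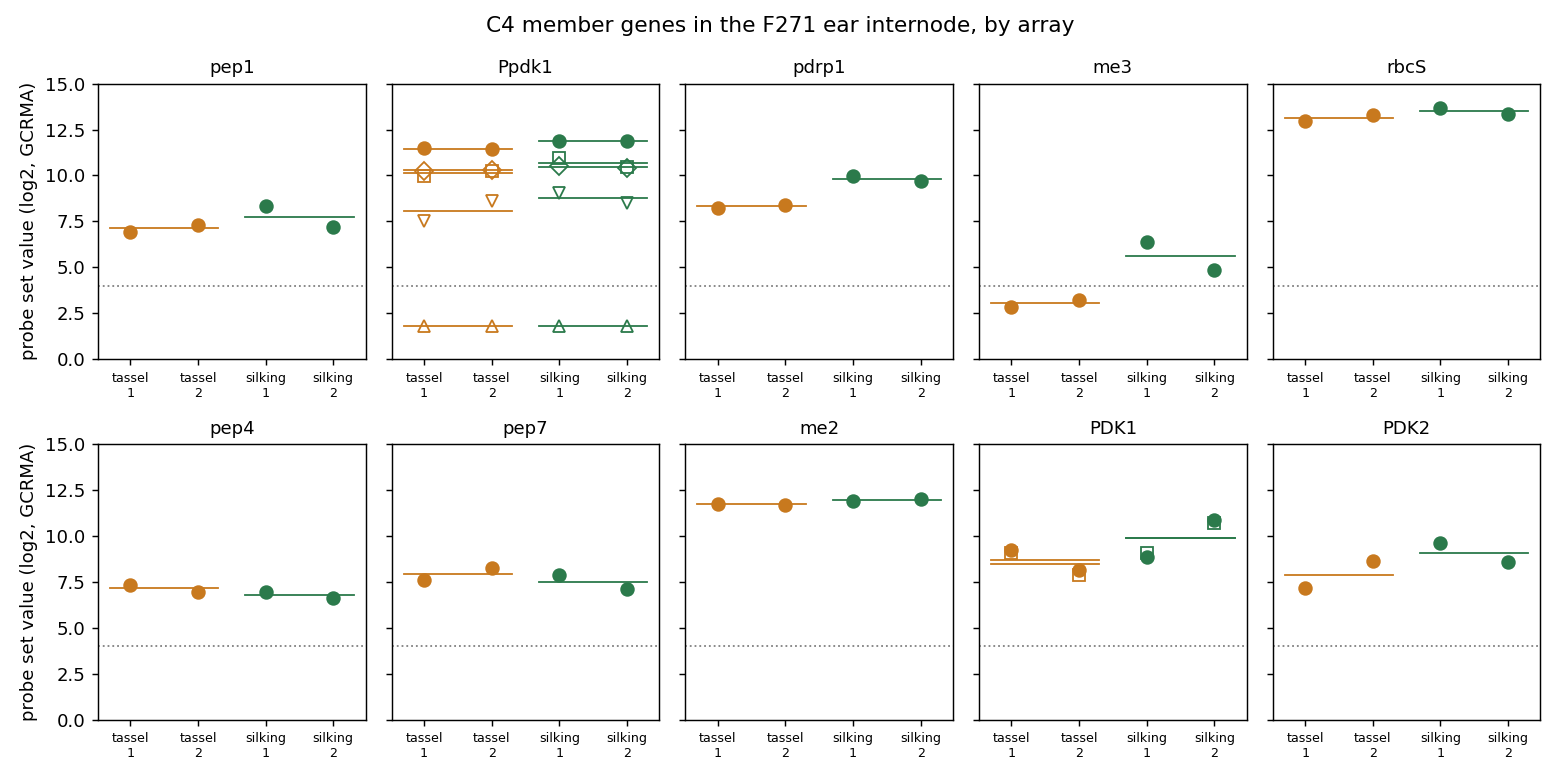
Probe set values (log2, GCRMA) of the 10 genes on the 4 arrays, 1 panel per gene, orange for tassel emergence and green for early silking. Points are arrays, short lines are stage means, filled symbols are the probe set that stands for the gene, open symbols its other probe sets, and the dotted line is the floor of 4. me3 lies under the floor on both tassel emergence arrays and above it on both silking arrays, pdrp1 shows separate stages, and 1 probe set of Ppdk1 stays at 1.78 to 1.81 throughout. Levels of different probe sets are not comparable with each other.

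The carboxylases start the cycle. pep1, the PEP carboxylase of C4 leaf mesophyll, measured 6.92 and 7.31 on the tassel emergence arrays, then 8.31 and 7.18 at silking. Only silking array 1 was high, and silking array 2 lay between the tassel emergence arrays, so the stages overlapped. The change of 0.63 had a 95% confidence interval from -0.65 to 1.91 (limma, adjusted p = 0.44), and it was 0.063 without early silking replicate 1 and 1.19 without early silking replicate 2. pep4, a carboxylase gene other than the C4 one, measured 7.35 and 6.96 on the tassel emergence arrays, then 6.94 and 6.62 at silking. These stages were separate by only 0.020, less than the difference between arrays of a stage, and the change was -0.37 (interval -1.06 to 0.32, limma adjusted p = 0.401). pep7, another such gene, measured 7.61 and 8.26 on the tassel emergence arrays, then 7.91 and 7.11 at silking, with overlapping stages and a change of -0.43 (interval -1.55 to 0.70). The pep7 change was -0.83 without early silking replicate 1, -0.75 without tassel emergence replicate 1, -0.10 without tassel emergence replicate 2 and -0.027 without early silking replicate 2, and that of pep4 ran from -0.57 to -0.18 over the same fits. The difference in direction between pep1 and the other carboxylases was not tested. PPCK1, a kinase that phosphorylates PEP carboxylase, was below the floor on every array, with values of 3.70, 3.01, 3.50 and 2.38 on tassel emergence arrays 1 and 2 and silking arrays 1 and 2.

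Ppdk1, the dikinase gene, whose synonyms name a C4 and a cytosolic form of the same locus, was represented by 5 probe sets, 4 of them tested. The one with the highest mean, of a type whose probes bind several transcripts of the gene, measured 11.49 and 11.44 on the tassel emergence arrays, then 11.87 and 11.88 at silking. The arrays of a stage differed by at most 0.054, and the stages were 0.38 apart without overlap. Its change was 0.41 with an SE of 0.17 (interval -0.07 to 0.89, limma adjusted p = 0.24), a 1.33-fold difference, and 28.8% of all tested probe sets had a larger upward change. Another probe set, whose probes may also bind similar sequences, had 9.96 and 10.27 and then 10.95 and 10.44, a change of 0.58. One more, of the same cross-binding type, had 10.27 and 10.30 and then 10.53 and 10.42, a change of 0.20. Both again had separate stages, by 0.17 and 0.13. The fourth measured 7.52 and 8.63 on the tassel emergence arrays, then 9.03 and 8.50 at silking, where silking array 2 was below tassel emergence array 2, and its change was 0.69 (interval -0.62 to 1.99). The 4 changes thus ran from 0.20 to 0.69, all above 0, and their intervals overlap one another. The probe sets share 1 gene and are not replicates, and the deposited values do not tell the C4 transcript from the cytosolic one. The fifth probe set, listed with the same source sequence as the first, was at 1.80, 1.79, 1.78 and 1.81, under the floor on every array.

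pdrp1 encodes the regulator protein of the dikinase, the enzyme that both phosphorylates and reactivates it. It measured 8.22 and 8.40 on the tassel emergence arrays, then 9.95 and 9.71 at silking. Both silking arrays were above both tassel emergence arrays by at least 1.31, while arrays of a stage differed by 0.18 and 0.23. The stage means were 8.31 ± 0.13 (SD, n = 2) and 9.83 ± 0.17 (SD, n = 2). The change was 1.52 with an SE of 0.20, a 2.87-fold difference, with an interval from 0.96 to 2.08 (limma, unadjusted p = 0.0017, adjusted p = 0.0895). Only 2.37% of tested probe sets had a larger upward change, and relative to the median of all tested probe sets the change was 1.42. With the 3' minus 5' gap as a covariate it was 1.3 (SE 0.30, adjusted p = 0.121), and with each array left out in turn it ran from 1.40 to 1.64 (limma adjusted p from 0.11 to 0.438). Every fit without an array has 1 array in a stage, which is assumed to vary like those of the other stage, and 1 residual degree of freedom. The regulator's interval for the stage difference, 0.96 to 2.08, lay above that of the main Ppdk1 probe set, -0.07 to 0.89. It also lay above that of the Ppdk1 probe set with a change of 0.20, -0.29 to 0.68. But it overlapped the intervals of the Ppdk1 probe sets with changes of 0.58 and 0.69, -0.18 to 1.33 and -0.62 to 1.99. The difference between regulator and dikinase was not tested.

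The malic enzymes release carbon dioxide from malate. me3, the NADP-malic enzyme of C4 bundle sheath chloroplasts, measured 2.86 and 3.21 on the tassel emergence arrays, then 6.37 and 4.85 at silking. Both tassel emergence values were under the floor and both silking values above it, with 1.52 between the silking arrays. Set against the floor, me3 was at least 3.06-fold higher at early silking, with measured stage means of 3.03 and 5.61 (limma, adjusted p = 0.126). The probe set passed the filter through the silking arrays alone, so it could only be tested because it was high there. The bound was 1.80-fold without early silking replicate 1 and 5.18-fold without early silking replicate 2. The fitted change of me3 and its p rest on values under the floor, so that only the bound describes its size. me2, the plastid malic enzyme of non-photosynthetic tissues, measured 11.76 and 11.71 on the tassel emergence arrays, then 11.93 and 12.02 at silking. Its stages were 0.17 apart and its arrays within a stage at most 0.092 apart, and its change was 0.24 (interval -0.25 to 0.73, limma adjusted p = 0.44). me2 was thus above the floor on all 4 arrays, and me3 at early silking alone.

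rbcS, the nuclear gene of the small subunit of Rubisco, measured 12.99 and 13.30 on the tassel emergence arrays, then 13.67 and 13.32 at silking. The stages were separate by only 0.024, which is less than the differences of 0.31 and 0.35 between arrays of a stage. The change of 0.35 had an interval from -0.31 to 1.02 (limma, adjusted p = 0.409), it ran from 0.18 to 0.53 with each array left out in turn, and with the gap as a covariate it was -0.013. A probe set of a small gene family such as rbcS can also bind the transcripts of near-identical copies.

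PDK1 and PDK2, kinases that shut down mitochondrial pyruvate dehydrogenase, differed by more than 1 between the arrays of each stage, which no other member did in both stages. PDK1 measured 9.23 and 8.16 on the tassel emergence arrays, then 8.85 and 10.90 at silking, and its other probe set had 9.08 and 7.90 and then 9.09 and 10.70. Both probe sets put silking array 2 highest and tassel emergence array 2 lowest. The change of 1.18 had an interval from -1.17 to 3.53 (limma, adjusted p = 0.431), and it was 0.15 without early silking replicate 2 and 2.21 without early silking replicate 1. PDK2 measured 7.20 and 8.63 on the tassel emergence arrays, then 9.62 and 8.60 at silking, with overlapping stages and a change of 1.20 (SE 0.65, limma adjusted p = 0.322). The PDK2 change was 0.48 without tassel emergence replicate 1, 0.69 without early silking replicate 1 and 1.91 without tassel emergence replicate 2. With the gap as a covariate it was -0.33. The kinases therefore had opposite orders of the arrays within each stage, PDK1 higher on tassel emergence array 1 and silking array 2, and PDK2 on the other two.

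**Figure D2:**
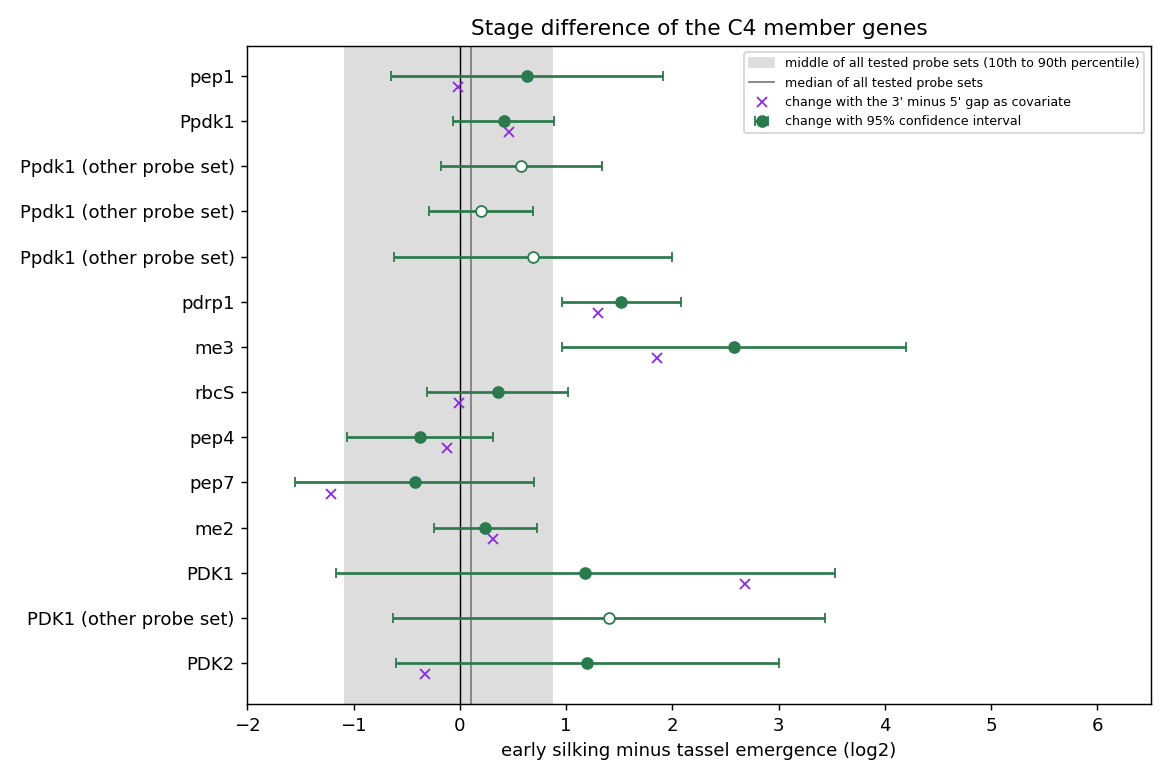
Early silking minus tassel emergence (log2) for the 14 tested probe sets, with 95% confidence intervals from limma; filled points are the probe set that stands for a gene, crosses the change of that probe set with the 3' minus 5' gap as a covariate. The grey band spans the 10th to 90th percentile of all 10782 tested probe sets, -1.08 to 0.86. The interval of pdrp1 lies above 0. The crosses of pep1, rbcS and PDK2 lie below 0 while their points lie above it, and those of pep4 and pep7 lie below 0 like their points. The me3 point and interval are fitted from values under the floor at tassel emergence, where only a bound can be given.

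The order of the arrays was compared with the control gap, which was narrowest on silking array 1, then silking array 2, tassel emergence array 2 and tassel emergence array 1. Values that stepped down in exactly that order were found in 5 of the 14 tested member probe sets, namely those of me3, pdrp1 and rbcS and both cross-binding probe sets of Ppdk1, against 12.4% of all tested probe sets. The last step of me3, from 3.21 on tassel emergence array 2 to 2.86 on array 1, lies under the floor. That gene was tested only because it was high at silking, and the Ppdk1 probe sets share 1 gene. The reverse order was found in 0 of the 14, against 6.15%. Tassel emergence array 1, with the widest gap, was the lowest array for 8 of the 14, against 32.6%. me3 and more than 1 probe set of Ppdk1 are among these 8 too. The main Ppdk1 probe set and me2 did not follow the order, with their tassel emergence array 1 slightly above array 2. With the gap as a covariate, which leaves 1 residual degree of freedom, the changes of Ppdk1 and me2 were 0.46 and 0.31, and those of pep1, rbcS and PDK2 were below 0, where they had been above it. The carboxylase genes already below 0 were at -0.12 for pep4 and -1.21 for pep7. The pep7 and PDK1 changes were the ones that grew most in size, from -0.43 to -1.21 and from 1.18 to 2.68 (limma, adjusted p = 0.213 and 0.228 with the covariate).

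**Figure D3:**
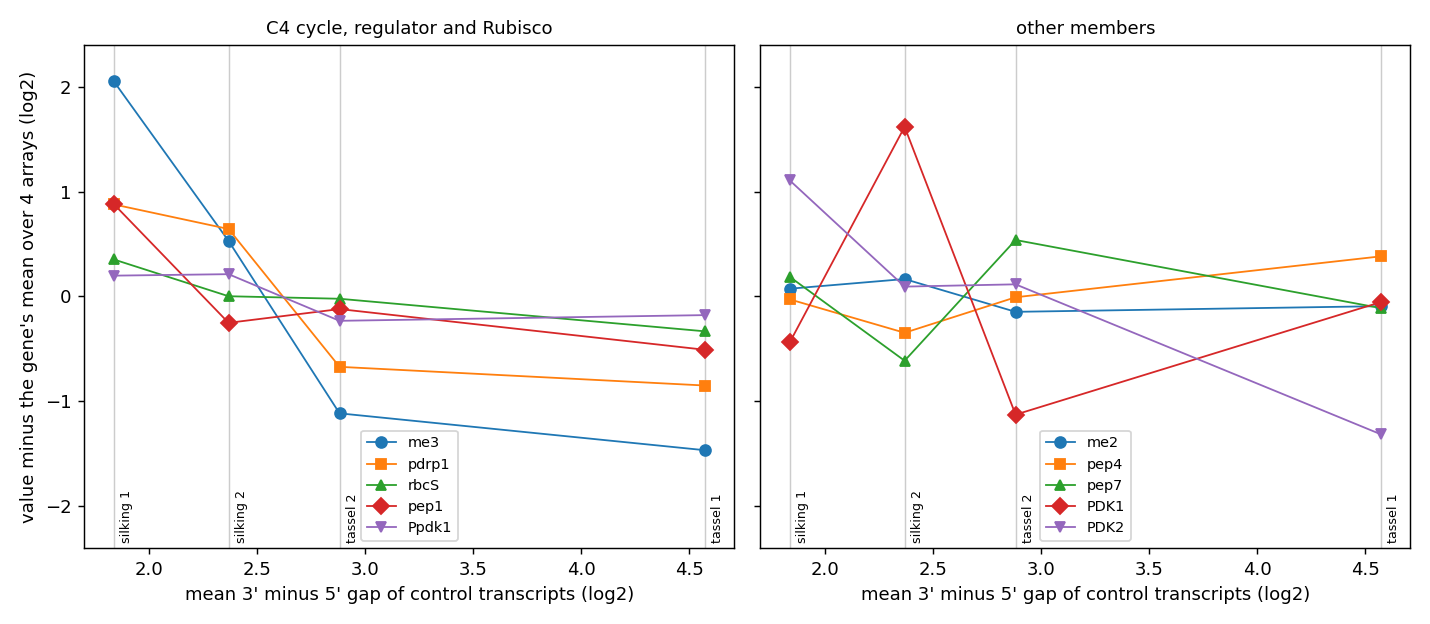
Value of each gene minus its own mean over the 4 arrays (log2) against the mean 3' minus 5' gap of 5 control transcripts on that array (log2), with 1 line per gene and grey lines at the arrays. me3, pdrp1 and rbcS step down from silking array 1 to tassel emergence array 1, with the largest drop of me3 and pdrp1 between the stages, while PDK1 and PDK2 move in opposite ways within stages. Both tassel emergence values of me3 lie under the floor.

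Of the other genes of the C4 cycle looked for by name, 4 were found among the named genes of the array and 3 were tested. Since 16168 of the 17621 probe sets have no gene name, other genes of the cycle may be on the array unnamed. mdh6, the chloroplast NADP-malate dehydrogenase that follows PEP carboxylase, measured 9.81 and 10.70 on the tassel emergence arrays, then 10.57 and 10.26 at silking. Its stages overlapped, with a change of 0.16 and an SE of 0.38. ppt1, the phosphoenolpyruvate/phosphate translocator of plastids, had 10.11 and 10.79 and then 10.87 and 10.65, also with overlap, and a change of 0.31. mdh4, a cytosolic malate dehydrogenase that is no part of the C4 cycle, had 12.77 and 12.98 and then 13.41 and 13.29, the 1 gene of this list with separate stages, and a change of 0.47 (limma, adjusted p = 0.232). All 3 were lower on tassel emergence array 1 than on array 2, a direction that 52.9% of tested probe sets had.

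The list for the Calvin cycle and Rubisco assembly held 12 genes by name, of which 6 were tested. The 6 left out, sbp2 to sbp7, are named for promoter-binding proteins and not for the bisphosphatase, and all were below the floor. The tested genes had a median change of 0.31, all 6 above 0, against 57.4% of all tested probe sets, with 2 higher without overlap, against 34.9%, 0 lower, against 24.9%, and 0 past the adjusted or the unadjusted threshold. One of the 6, gpa1, was above 0 by only 0.00050, with overlapping stages. The median was 0.16 without tassel emergence replicate 1 and 0.55 without tassel emergence replicate 2. bsd2, a chaperone-like protein that Rubisco accumulation in bundle sheath needs, had 7.42 and 7.85 and then 7.93 and 8.39, a change of 0.52. gpb1, a subunit of chloroplast glyceraldehyde phosphate dehydrogenase, had 9.83 and 10.23 and then 10.51 and 10.41, a change of 0.43. These were the genes of the list with separate stages, and neither passed (limma, adjusted p = 0.313 for gpb1 and 0.323 for bsd2). rca1, Rubisco activase, had the largest change of the list at 1.02, but its stages overlapped, with 8.93 and 10.53 followed by 11.04 and 10.45. All 6 genes were lower on tassel emergence array 1 than on array 2. CPN60I and CPN60II, also in the list by their symbols, carry the synonyms HSP60-1 and mtcpn60II. Neither of these synonyms names a part in Rubisco assembly, and mtcpn60II names a mitochondrial chaperonin. Both genes count among the 6 above 0, with changes of 0.20 and 0.15, and no count or median was made without them.

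Genes of the light reactions were above the floor on every array. All 14 of the list were tested, with probe set values between 8.42 and 14.42. The list took in 3 genes that are not particular to green tissue, ATPB, whose synonym ATP2 is that of a mitochondrial ATP synthase subunit, and fdx3 and FDX6, ferredoxins of non-photosynthetic tissue. The other 11 genes had the same range, among them Cab-m7, a chlorophyll-binding protein, at 13.74 and 14.33, then at 14.42 and 13.90 at silking. The median change of the 14 was 0.30, with 12 genes above 0, against 57.4% of all tested probe sets, 4 higher and 1 lower without overlap, against 34.9% and 24.9%, 1 higher at an unadjusted p under 0.05, against 12.7%, and 0 past the adjusted threshold. Without the 3 genes, a choice made after seeing the data, the median was 0.53, with 11 of 11 above 0 and the same 4 higher without overlap. The log2 of the summed linear level of these 11 was 15.33 and 15.998 on the tassel emergence arrays and 16.28 and 15.80 on the silking ones, which overlap. The median of the 14 was 0.15 without early silking replicate 1, 0.062 without tassel emergence replicate 1, and 0.68 without replicate 2 of either stage. psan1, a photosystem I subunit, had 13.16 and 13.35 and then 14.04 and 13.87, a change of 0.70 (limma, unadjusted p = 0.0221, adjusted p = 0.149). OEE3, a protein of the oxygen-evolving complex, and psah1, another photosystem I subunit, had changes of 0.58 and 0.59. The gene lower without overlap was ATPB, at -0.26. Of the 14, 12 were lower on tassel emergence array 1 than on array 2. With the gap as a covariate the medians of the C4 cycle, Calvin cycle and light reaction lists were -0.35, -0.10 and -0.089.

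The list for other enzymes around pyruvate, malate and glycolysis had 20 tested genes of 21, with 10 above and 10 below 0 and a median of 0.03. In it, 5 were higher and 6 lower without overlap, against 34.9% and 24.9% of all tested probe sets, 4 higher and 4 lower at an unadjusted p under 0.05, against 12.7% and 12.1%, and 0 passed the adjusted threshold. pdc2, a pyruvate decarboxylase of fermentation, had 4.70 and 4.72 and then 6.16 and 5.91, a change of 1.32 (limma, adjusted p = 0.0898), and eno2, an enolase, had a change of 0.57. gpc3 and gpc4, cytosolic glyceraldehyde phosphate dehydrogenases of glycolysis, had changes of -1.68 and -1.91 (limma, adjusted p = 0.0864 for both). gpc3 went from 12.04 and 11.78 to 10.32 and 10.13. pdh1, the gene LOC541699, had a change of -0.60. The symbol ACO20 in this list, with a change of 1.62, is an ACC oxidase of ethylene synthesis and not an aconitase, and it is in both upward counts. ACO31, taken in by the same symbol, had a change of -0.76 with overlapping stages. A gene taken in as pdh2 also carries the synonym pgd2, and with a change of -0.71 it is among those lower without overlap. No count was made without these genes.

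**Figure D4:**
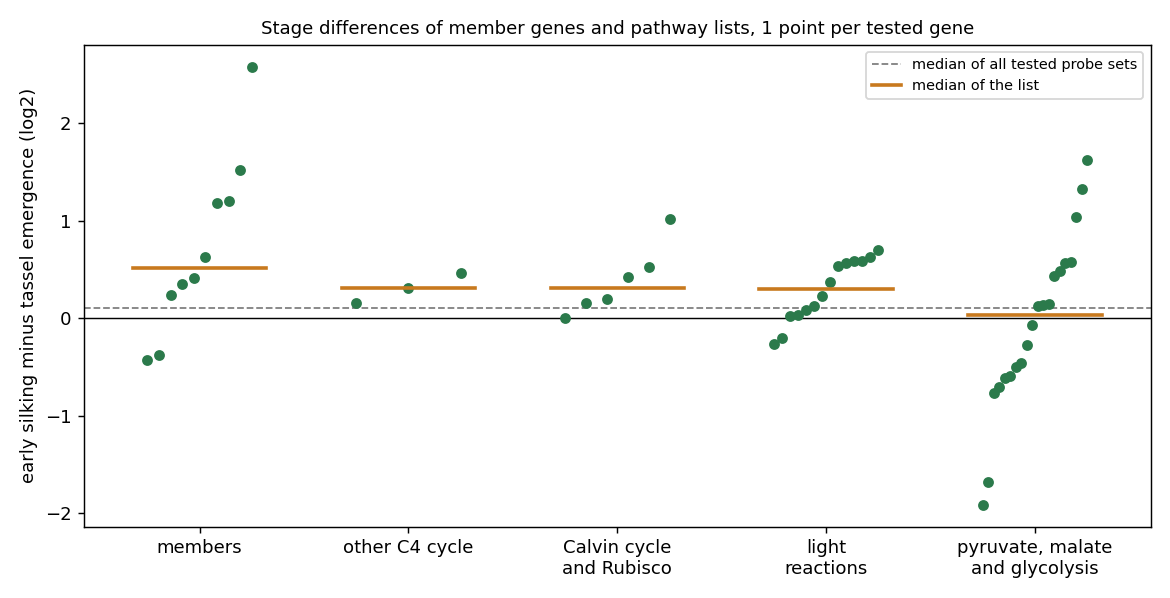
Early silking minus tassel emergence (log2) of the 10 genes described here and of the tested genes of 4 pathway lists, 1 point per gene, with the list median as an orange line. The dashed line is the median of all tested probe sets, 0.10. The list medians are 0.52, 0.31, 0.31, 0.30 and 0.03 from left to right, and the list on the right has points furthest below 0, those of gpc3 and gpc4.

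Likeness to each gene was measured as the root mean square distance over the 4 arrays between values centred on their own mean, among the other 790 tested and named genes. With 4 arrays it describes these arrays only. The like genes were picked by these same values, so an order of arrays or stages that they share with a gene comes with the choice. For pdrp1 the nearest were ACO20 at a distance of 0.083, GST39, a glutathione transferase, at 0.090, and pdc2 at 0.114. Each of these had both silking arrays above both tassel emergence arrays. For me3 the nearest were LOC100037813 at 0.270, ys1, an iron-phytosiderophore transporter, at 0.318, and hda106, a histone deacetylase, at 0.392. All 3, like me3, were under the floor at tassel emergence and above it at silking, and their distances include the values under the floor. For Ppdk1 they were ACK2 at 0.023, HD2b, a histone deacetylase, at 0.031, and LOC542179 at 0.032.

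For rbcS the nearest were fdh, a formate dehydrogenase, at 0.024, spp1, a sucrose phosphate phosphatase, at 0.035, and psbs1, a photosystem II subunit, at 0.041. For pep1 they were the aquaporin gene pip2-5 at 0.152, orp1, a tryptophan synthase beta subunit, at 0.157, and the ferredoxin gene fdx2 at 0.175. PDK2 lay nearest to sig6, a sigma factor of plastid RNA polymerase, at 0.154, followed by rca1 at 0.183 and LOC732725 at 0.184. The likest genes of rbcS, pep1 and PDK2 share a highest value on silking array 1 and a lowest one on tassel emergence array 1. PDK1 lay nearest to LIP at 0.375, pdc3, another pyruvate decarboxylase gene, at 0.469, and aldh2, an aldehyde dehydrogenase, at 0.528. LIP, pdc3 and aldh2 were, like PDK1, highest on silking array 2 and lowest on tassel emergence array 2. For pep4 the nearest were m31, a MADS box gene, at 0.053, meatpase at 0.080 and ANT-G1, an adenine nucleotide translocator, at 0.089. For pep7 they were TUA1, an alpha-tubulin, at 0.066, MIK at 0.080 and pdh2, a pyruvate dehydrogenase E1 beta subunit, at 0.092, and for me2 they were LOC606453 at 0.021, see2b at 0.030 and ec2e, also named rpl39, at 0.033.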

How the data were processed

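RNA of 4 ear internode samples was measured on Affymetrix maize arrays. The authors summarised probe sets with GCRMA, per the submitters' processing notes, and deposited values that lie between 1.36 and 15.24 without controls, which is a log2 scale; the version is not given in the sources used here. Of 17734 probe sets, 113 controls were left out. Genes were named from the platform annotation and, for 1060 of 1108 genes, from symbols and synonyms in RefSeq (Zm-B73-REFERENCE-NAM-5.0), with no coordinate used; 16168 probe sets have no gene there. R 4.3.3 and limma 3.58.1 (lmFit, eBayes, 2-sided) gave the stage difference over 10782 probe sets above a log2 value of 4 on at least 2 arrays, with prior degrees of freedom of 1.95, and checked on simulated data. A permutation of 2 against 2 arrays cannot give a p under 0.33. Named were all members, every gene of the C4 cycle list, in the other lists the 3 genes of smallest p in each direction with separate stages, and 3 like genes per member. Genes beyond this rule, such as rca1, Cab-m7, the chaperonins and the sbp genes, were chosen after their values were seen. Members and lists were chosen with earlier results of these data known. Alternatives covered the filter, normalization, variance model, replicate block, control gap and each array left out.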

Additional observations from a re-analysis of the deposited data

How the results depend on the processing

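Over 158 values of the 10 genes under the alternatives, 152 kept their direction and their side of the threshold. The filters, the variance models and the replicate block leave the change of a probe set as it was, so direction could not move there. Since no member passed in the main fit, keeping its side of the threshold meant not passing again. The 152 therefore say little on stability. Direction reversed for pep1 (-0.021), rbcS (-0.013) and PDK2 (-0.33) with the 3' minus 5' gap as a covariate, and for PDK2 (-0.24) with the gap computed without actin, which was added after seeing the data. The direction of the other 7 genes held under all alternatives run. With 1 common variance, me3 (2.58, adjusted p = 1.87e-05) and pdrp1 (1.52, adjusted p = 0.0327) passed, where the me3 value is fitted from levels under the floor and the gene was tested only through the silking arrays, and 1045 of all tested probe sets passed where 0 did in limma (2679 at an unadjusted p under 0.05). The labels do not say that a replicate number marks shared plants or days, and the deviations of same-numbered arrays correlated at r = -0.42 across probe sets. The replicate block gave 0 calls, with a smallest adjusted p of 0.233, and crossed pairs as a block, added after seeing the data, gave 357. With the replicate block the changes were as without it, and the adjusted p was 0.251 for pdrp1 and 0.26 for me3. me3 could not be fitted in a table restricted to values above 4 on all arrays or above 5 on 2. Leaving out each array in turn gave 0 calls over all tested probe sets each time, with 1 array in a stage, the spread taken from the other stage and 1 residual degree of freedom, so that these fits say little on stability. The median of the C4 cycle list ran from -0.030 to 0.60 over these fits, the negative value without tassel emergence replicate 1, and that of the pyruvate and malate list from -0.078 to 0.11, negative without early silking replicate 2 (-0.078) and without tassel emergence replicate 2 (-0.069). With the gap, the medians of the C4 cycle, Calvin cycle, light reaction and pyruvate lists were -0.35, -0.10, -0.089 and -0.062, and without actin in it -0.31, -0.082, -0.053 and -0.043. The median of the pyruvate list was 0.13 with values above 4 on all arrays and 0.13 above 5 on 2. The causes were not tested. Leaving out the sbp genes did not move the Calvin cycle median, since none was tested.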
